A study of Mus musculus with 8 samples.

Results

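Notch receptors, their ligand Jag1, the receptor-modifying enzyme Lfng and the Notch target genes were followed in cultures of mouse bone marrow stromal cells that lacked Lgr6 or carried it. The members were 10 listed genes, found in the deposited table by gene identifier: Notch1, Notch2, Notch3, Notch4, Jag1, Hes1, Hey1, Heyl, Nrarp and Lfng. 9 of the 10 had a row among the 19460 genes of the table, and 8 of these passed the filter on low values. Nrarp, whose product limits Notch signaling by feedback, was not analysed here, and Heyl had too few reads for the test.

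Polyadenylated RNA was sequenced from 4 Lgr6-null and 4 wild-type cultures. The Lgr6-null mice were homozygous for Lgr6-GFP-ires-CreERT2, an allele that puts a fluorescent reporter and an inducible recombinase at the Lgr6 gene, and the wild-type mice had no such allele. Both genotypes share the C57BL/6 background and the same treatment, 10 days in medium with 4 mM β-glycerophosphate, 50 µg/mL ascorbic acid and 10% serum, which drives marrow stromal cells toward bone-forming osteoblasts. The sources used here give neither the age and sex of the mice nor whether the cultures of each genotype derive from different animals, so every p-value reflects only the variation among the 8 libraries, which may be technical. Lgr6 encodes a receptor of the R-spondins, secreted proteins that strengthen Wnt signaling, and the comparison asks which signaling genes go with its loss during osteogenic differentiation.

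Notch receptors are single-pass membrane proteins that are switched on by ligands on a neighbouring cell. Ligand binding lets ADAM proteases and then γ-secretase cut the receptor, and the freed intracellular part enters the nucleus, where it joins the DNA-binding protein RBPJ and a Mastermind coactivator to turn on target genes such as Hes1, Hey1, Heyl and Nrarp. In the skeleton the pathway is known to act on the choice between keeping marrow progenitors and letting them become osteoblasts, and Notch receptors and ligands are also made by macrophages and vessel cells. Fringe enzymes such as Lfng add a sugar to the receptor's extracellular repeats and so change which ligands it answers to.

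Because RBPJ is the DNA-binding partner shared by the pathway, the promoters of the members were searched for its core motif, TGGGAA, on both strands. RefSeq promoter windows of build GRCm38.p6, which run from 250 bases before to 50 bases after the gene start, were matched for 7 of the 10 members by symbol (Notch1, Notch2, Notch3, Notch4, Jag1, Nrarp and Lfng). The target genes Hes1, Hey1 and Heyl had no matching window and were not searched. Of the 7 matched members only the Lfng window held the motif, against 25.6% of all 32851 windows. It held the motif in 2 places, 1 on each strand, and 1 of them was also a match to the longer GTGGGAA, found in 6.38% of all windows, which contains the core. Capitals mark the core on either strand. The Lfng stretch is shown for these matches, and the Notch1 stretch because Notch1 was the member that passed the test below. Each is the part before the gene start, 250 bases long, read 5′ to 3′ along the gene's strand: chr5:140607091-140607340 on the plus strand for Lfng and chr2:26503823-26504072 on the minus strand for Notch1.
Lfng: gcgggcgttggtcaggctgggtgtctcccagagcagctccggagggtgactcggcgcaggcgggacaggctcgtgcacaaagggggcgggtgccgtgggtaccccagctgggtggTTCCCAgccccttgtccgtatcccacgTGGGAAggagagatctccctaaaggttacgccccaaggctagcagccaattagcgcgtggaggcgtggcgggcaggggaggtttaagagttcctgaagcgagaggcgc
Notch1: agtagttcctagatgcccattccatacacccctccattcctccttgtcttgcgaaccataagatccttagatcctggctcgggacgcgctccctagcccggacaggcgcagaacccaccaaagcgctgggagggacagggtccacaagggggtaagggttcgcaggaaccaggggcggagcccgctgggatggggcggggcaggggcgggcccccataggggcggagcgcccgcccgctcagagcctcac
The Notch1 stretch holds no capitals because the motif was not found in it. The 300-base Notch1 window was 68.3% G or C with 23 CG pairs and the Lfng window 66.7% with 22, against medians of 52.7% and 7 over all windows, while the Notch4 window had 5 CG pairs. A match says only that these letters are present, and no binding was measured in these cultures.

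Before the Notch genes are compared, the libraries need 3 facts. Recovered depth was 7629968 to 21135173 reads in genes in the Lgr6-null libraries, with M4 the shallowest, and 12561103 to 18672187 in the wild-type libraries. Lgr6 stood at 64.3, 76.2, 103 and 61.1 normalized counts in Lgr6-null, against 1667, 1390, 996 and 1096 in wild-type, so every library matched its label. Of 13 osteoblast markers, all 13 were called lower in Lgr6-null, with a summed level of 337224 to 418147 normalized counts in Lgr6-null against 1808570 to 2355900 in wild-type, and of 18 macrophage markers 12 were called higher and 0 lower, with a summed level of 452297 to 681874 in Lgr6-null against 310003 to 365022 in wild-type. The labelled stromal cultures therefore held RNA of both kinds of cell, and in such bulk RNA a change in the number of cells of a type cannot be told apart from a change in the RNA each cell makes. The part of these cell types in the results on Notch genes was not tested.

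Of the 4 receptors, Notch1 rose in the Lgr6-null cultures. It stood at 2018, 1876, 1788 and 1718 normalized counts in the M0, M2, M3 and M4 libraries of Lgr6-null, against 1088, 932, 1006 and 1110 in the M0, M1, M2 and M3 libraries of wild-type. The same library order is kept for every gene. Every Lgr6-null library lay above every wild-type library, and the spread within each genotype was small beside the gap. The means were 1850 ± 129 in Lgr6-null, against 1034 ± 81.6 in wild-type (SD, n = 4 each), a log2 fold change of 0.84 on the log2(normalized count + 1) scale (standard error, SE, 0.08, 95% interval 0.67 to 1.01, limma adjusted p = 7.22e-05). 12150 reads stood behind these values, 900 in the shallowest Lgr6-null library. The annotation has 2 opposite-strand transcripts that share exon sequence with Notch1. 0610009E02Rik was at 7.43 to 9.21 normalized counts in Lgr6-null, against 9.58 to 18.6 in wild-type, and Gm13568 was not analysed here. Since the strand setting of the counting is not given in the sources used here, their part in the Notch1 values was not tested.

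**Figure D1:**
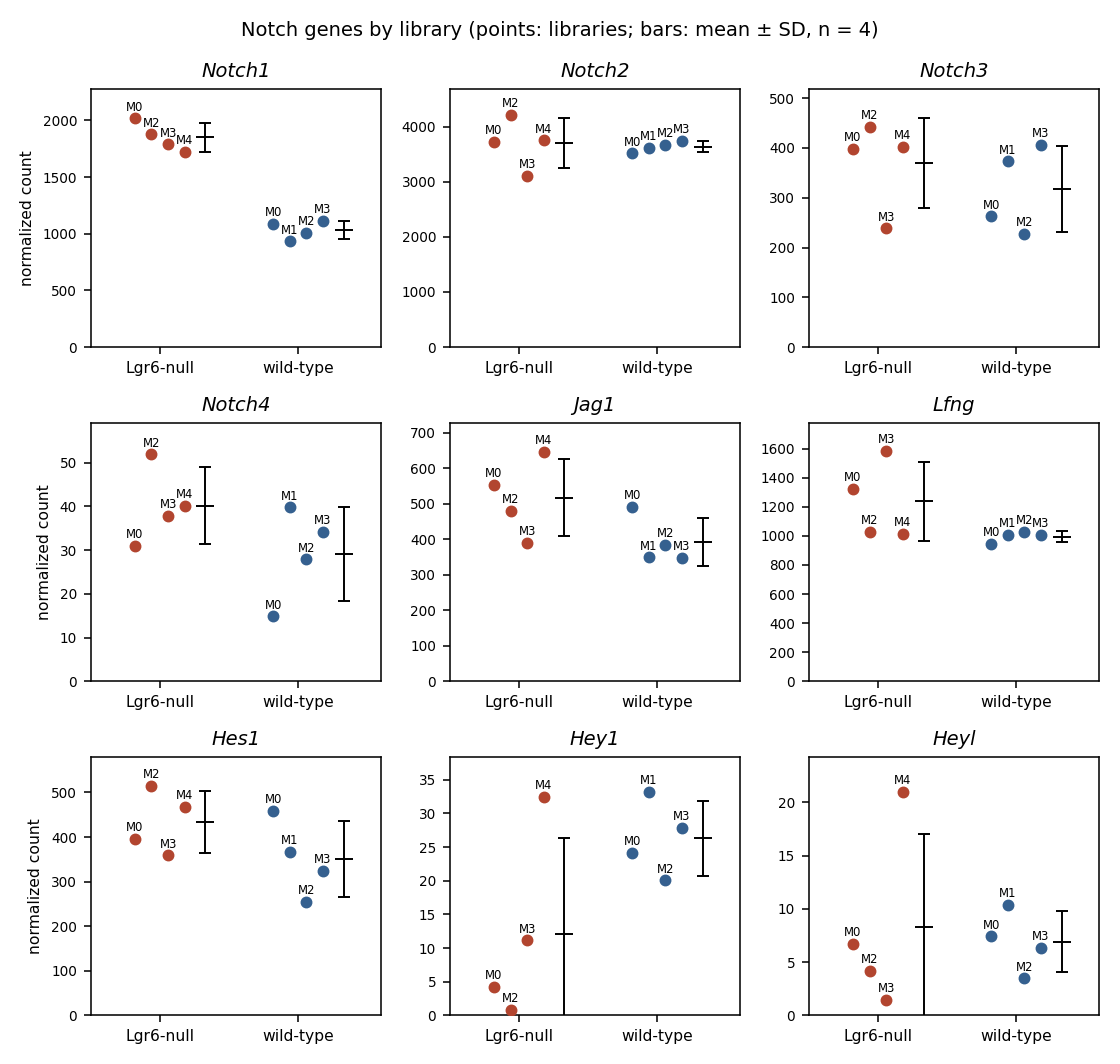
Normalized counts of the 9 measured Notch genes in each library, with Lgr6-null in red on the left and wild-type in blue on the right; points are libraries named by their column number and bars are the mean and SD of 4. The Lgr6-null libraries sit at 1718 to 2018 for Notch1, above the wild-type range of 932 to 1110, and the genotypes overlap for the other 8 genes.

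Notch2, the receptor with the most reads here, did not pass the test. Its levels were 3728, 4207, 3111 and 3750 normalized counts in Lgr6-null, against 3514, 3618, 3672 and 3741 in wild-type, and the wild-type values lay inside the Lgr6-null range. The log2 fold change was 0.02 (standard error 0.09, limma adjusted p = 0.912), and its 95% interval from -0.18 to 0.21 lies below the whole interval of Notch1. Notch3, a receptor best known from the smooth muscle cells and pericytes of vessels, was at 398, 442, 239 and 403 in Lgr6-null, against 262, 373, 227 and 406 in wild-type. Each genotype had both high and low libraries, and the log2 fold change of 0.22 (standard error 0.23, limma adjusted p = 0.530) was within the spread. Of 8 tested smooth muscle and pericyte markers 3 were called higher (Myh11, Acta2 and Cnn1) and 1 lower (Cspg4), beside 13.0% and 12.7% of all genes tested. The summed level of these markers was 17631 to 23221 in Lgr6-null, against 9505 to 18181 in wild-type. The part of such cells in the Notch3 values was not tested. Notch4, a receptor mainly of endothelial cells, was scarce, at 30.9, 51.9, 37.9 and 40.1 normalized counts in Lgr6-null, against 14.8, 39.8, 27.9 and 34.2 in wild-type. With 16 to 62 reads per library its log2 fold change of 0.51 had an interval from -0.18 to 1.20 (limma adjusted p = 0.262), too wide to settle a change of the size seen for Notch1. Endothelial markers were scarce too. 12 of 14 had a row, their summed level was 125 to 193 in Lgr6-null, against 181 to 242 in wild-type, Cldn5 and Sox17 had no row, and of the 7 tested 1 was called higher (Tie1) and 3 lower (Kdr, Erg and Sox18).

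Notch1 made up a larger part of the receptor transcripts in every Lgr6-null library than in any wild-type library. Dividing by exon length, so that genes can be compared, Notch1 made up 26.2%, 22.6%, 28.0% and 23.1% of the summed receptor level in the 4 Lgr6-null libraries, against 17.5%, 14.5%, 16.0% and 16.3% in the 4 wild-type libraries. Notch2 held 64.0% to 66.9% in Lgr6-null, against 72.4% to 76.9% in wild-type, so it was the leading receptor in all 8 libraries. Neither share overlapped between the genotypes, and the shares of Notch3 (6.58% to 9.52% in Lgr6-null, 6.35% to 10.5% in wild-type) and of Notch4 did. The ratio of Notch1 to Notch2 per kb, which no scaling of whole libraries can move, was 0.383 ± 0.048 in Lgr6-null, against 0.215 ± 0.018 in wild-type (SD, n = 4 each), with ranges of 0.338 to 0.435 and 0.195 to 0.234.

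**Figure D2:**
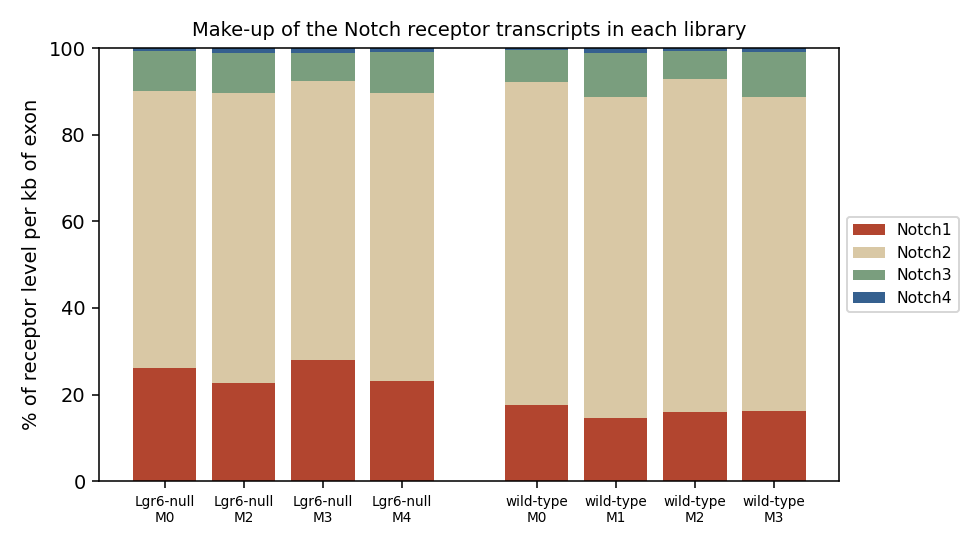
Share of each Notch receptor in the summed receptor level per kb of exon, in percent, for the 4 Lgr6-null libraries on the left and the 4 wild-type libraries on the right. The Notch1 part runs from 22.6% to 28.0% in Lgr6-null and from 14.5% to 17.5% in wild-type, with Notch2 the largest part of every bar.

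Jag1, the membrane ligand that can switch on Notch receptors of neighbouring cells, was at 554, 480, 390 and 645 normalized counts in Lgr6-null, against 490, 348, 383 and 347 in wild-type. Lgr6-null M4 and M0 were the highest, while Lgr6-null M2 and M3 lay within the wild-type range and wild-type M0 within the Lgr6-null range. The means were 517 ± 109 in Lgr6-null, against 392 ± 67.2 in wild-type (SD, n = 4 each), and the log2 fold change of 0.39 (standard error 0.16, 95% interval 0.02 to 0.75) was not called (limma adjusted p = 0.111). It was called without Lgr6-null library M3 (0.52, limma adjusted p = 0.0319) and without wild-type library M0 (0.50, limma adjusted p = 0.0497), and scaled to 20 broad stromal genes it was at 0.08 (limma adjusted p = 0.719). The other ligands were scarce. Jag2, the close relative of Jag1, had 25.1, 45.2, 29.0 and 47.7 normalized counts in Lgr6-null, against 24.1, 42.6, 23.5 and 34.2 in wild-type (log2 fold change 0.22, standard error 0.28, limma adjusted p = 0.617). Dlk2, a non-canonical ligand, was at 13.4, 14.2, 25.3 and 9.55 in Lgr6-null, against 19.5, 28.4, 30.5 and 22.8 in wild-type, and its log2 fold change of -0.72 (95% interval -1.42 to -0.03) was not called (limma adjusted p = 0.118). The Delta-type ligand Dll1 had 40 reads over the 8 libraries and Dll4, a ligand of growing vessels, had 21, and neither passed the filter. Dlk1, a relative of Dlk2 made by stromal precursors, was not analysed here.

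Lfng, the fringe enzyme of the list, was at 1323, 1030, 1584 and 1012 normalized counts in Lgr6-null, against 943, 1005, 1025 and 1006 in wild-type. Lgr6-null libraries M0 and M3 stood well above every wild-type library, Lgr6-null M2 barely so at 1030 against a wild-type highest of 1025, and Lgr6-null M4 lay within the wild-type range. The wild-type libraries varied by 3.58% of their mean and the Lgr6-null libraries by 22.0%, and the log2 fold change of 0.29 (standard error 0.13, 95% interval -0.01 to 0.59) was not called (limma adjusted p = 0.141). The summed macrophage marker level was also highest in Lgr6-null M3 (681874) and M0 (574578), against 456672 in M2 and 452297 in M4, and its part in the Lfng values was not tested. With libraries scaled to the same total Lfng was called (0.38, limma adjusted p = 0.0275), and scaled to 20 broad stromal genes it was at -0.02.

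Hes1, the repressor most used as a readout of Notch activity, was at 397, 514, 359 and 468 normalized counts in Lgr6-null, against 458, 366, 255 and 324 in wild-type. Libraries of both genotypes were interleaved, and the log2 fold change of 0.32 (standard error 0.18, 95% interval -0.07 to 0.72) was not called (limma adjusted p = 0.213). Scaled to the 20 broad stromal genes it was at 0.02 (limma adjusted p = 0.954). Per unit of summed receptor level, Hes1 was 0.360 to 0.439 in Lgr6-null, against 0.283 to 0.515 in wild-type, so the wild-type range enclosed the Lgr6-null range.

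Hey1, a related repressor that Notch and BMP signals both induce, was scarce and uneven among the Lgr6-null libraries. It was at 4.18, 0.837, 11.2 and 32.5 normalized counts in Lgr6-null M0, M2, M3 and M4, which are 5, 1, 15 and 17 reads, and at 24.1, 33.1, 20.0 and 27.9 in wild-type, from 22 to 35 reads. Lgr6-null M4 lay inside the wild-type range and the other 3 Lgr6-null libraries lay below it. The log2 fold change was -1.77 with a wide error (standard error 0.74, 95% interval -3.43 to -0.11) and was not called (limma adjusted p = 0.112). The ratio of the genotype means was 0.462, and the value was -1.20 with a pseudocount of 5, -1.38 by edgeR and -1.22 by DESeq2 on the recovered reads, none of them called. Without Lgr6-null M4, the shallowest library, it was -2.46 and called lower (SE 0.57, limma adjusted p = 0.0140). Heyl, a further member of the Hey family, was at 6.68, 4.19, 1.49 and 21.0 normalized counts in Lgr6-null, against 7.42, 10.4, 3.48 and 6.33 in wild-type, again with Lgr6-null M4 the highest. Its 54 reads over 8 libraries left it under the filter, and with no filter it was at -0.13 (limma adjusted p = 0.918). Dll4 had its highest value in the same library, 13.4 normalized counts against 0 to 2.51 in the other Lgr6-null libraries and 0 to 3.80 in wild-type.

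**Figure D3:**
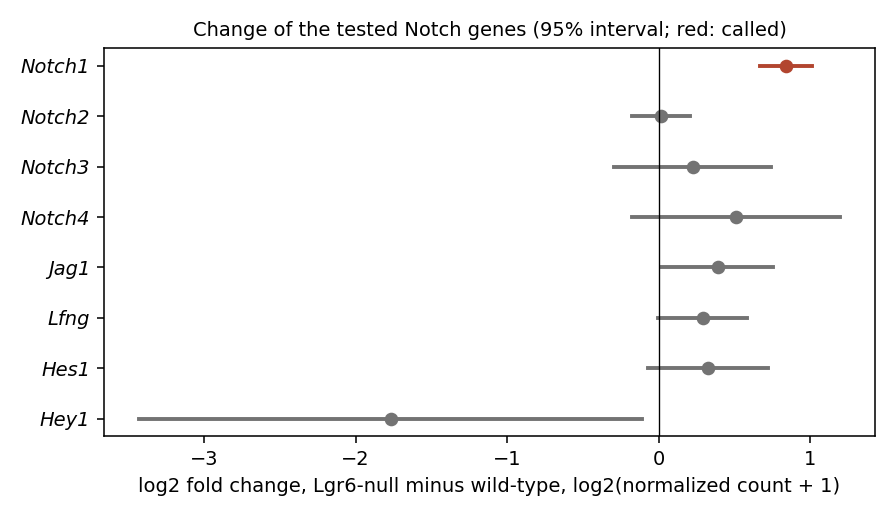
Log2 fold change of the 8 tested Notch genes, Lgr6-null minus wild-type on the log2(normalized count + 1) scale, with 95% intervals from limma. Notch1 in red was called at 0.84, the interval of Notch2 around 0.02 is among the narrowest and that of Hey1, from -3.43 to -0.11, is the widest of the 8.

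In all, 1 of the 8 tested members was called higher and 0 were called lower in Lgr6-null, where 13.0% of the 14294 genes tested were called higher and 12.7% lower. Notch1 was likewise the 1 member without overlap between the genotypes, where 14.4% of tested genes did not overlap with Lgr6-null higher and 14.7% with Lgr6-null lower. The share of members called higher was thus close to its background, and 8 genes are too few to compare the share called lower. The median log2 fold change of the 8 was 0.31, against 0.00 over all genes tested. Scaling moves the members and all other genes together. Relative to 20 broad stromal genes the median of all genes was at -0.30, and Notch1 at 0.53 was still called. In that setting Notch4 was at 0.21, Jag1 at 0.08, Hes1 at 0.02, Lfng at -0.02, Notch3 at -0.08, Notch2 at -0.29 and Hey1 at -2.04.

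Ordered by level per kb of exon, the members covered a wide range in both genotypes. Lfng led with 494 ± 108 normalized counts per kb in Lgr6-null, against 397 ± 14.2 in wild-type, followed by Notch2 at 343 ± 41.7 in Lgr6-null, against 337 ± 8.87 in wild-type, and Hes1 at 213 ± 34.2 in Lgr6-null, against 172 ± 41.7 in wild-type (SD, n = 4 each). Notch1 came next with 130.0 ± 9.07 in Lgr6-null, against 72.7 ± 5.73 in wild-type. Jag1, at 88.7 ± 18.7 in Lgr6-null, against 67.3 ± 11.5 in wild-type, overlapped Notch1 in the wild-type libraries but lay below it in all 4 Lgr6-null libraries. Notch3 stood at 45.8 ± 11.1 in Lgr6-null, against 39.2 ± 10.6 in wild-type. Lfng, Notch2, Hes1 and Notch1 did not overlap with their neighbours in this order in either genotype, apart from Notch1 with Jag1 in wild-type. Hey1, Notch4 and Heyl reached at most 10.1 normalized counts per kb in any library, and their ranges overlapped in Lgr6-null. Lengths are the union of all annotated exons, so a gene with long rare exons is placed too low in this order.

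**Figure D4:**
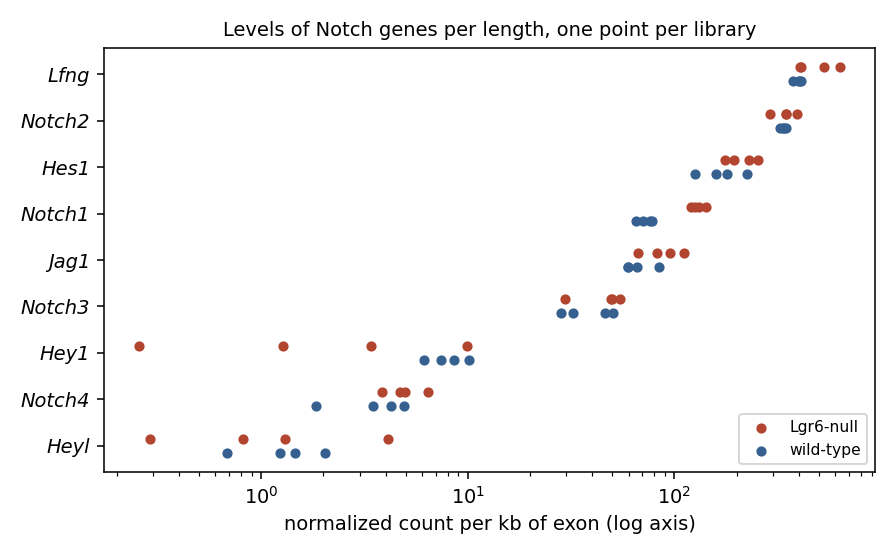
Levels of the 9 measured Notch genes in normalized counts per kb of exon on a log axis, one point per library, Lgr6-null in red above wild-type in blue for each gene. Lfng and Notch2 lie at the top, Hey1, Notch4 and Heyl at the bottom, and the Notch1 points of the genotypes stand apart.

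A list of 75 other genes of the pathway was read from the same fit. 64 were tested, 10 of them called higher and 8 lower in Lgr6-null, with a median log2 fold change of 0.01, against 0.00 over all genes tested. Without Lgr6-null M0, or without wild-type M1, M2 or M3, 4 or 5 rather than 8 were called lower. The full-data counts are 18 of 64 beside a background of 13.0% called higher and 12.7% lower among all genes tested, so the wider pathway was changed about as often as other genes and in both directions. The 10 genes of the proteases that cut the receptor and of their subunits, including Adam10, Adam17 and the γ-secretase subunits, were all uncalled. Their log2 fold changes ran from -0.12 for Furin to 0.27 for Adam17 (95% interval 0.04 to 0.49). Of the 10, 1 (Adam17) was higher and 1 (Furin) lower without overlap between the genotypes, beside 14.4% and 14.7% of all genes tested. Rbpj, the DNA-binding partner, was at 4170, 2402, 2691 and 2343 normalized counts in Lgr6-null, against 2561, 2820, 2949 and 2734 in wild-type. Lgr6-null M0 was the highest of the 8, Lgr6-null M3 lay within the wild-type range and Lgr6-null M2 and M4 lay below it, with a log2 fold change of 0.03 (limma adjusted p = 0.921).

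Among the fringe enzymes, Mfng rose. It was at 226, 164, 263 and 164 normalized counts in Lgr6-null, against 70.5, 54.9, 105 and 87.3 in wild-type, without overlap (log2 fold change 1.36, standard error 0.23, limma adjusted p = 0.00208). Per kb of exon Mfng was 8.95% to 10.2% of the summed fringe level in Lgr6-null, against 3.13% to 5.91% in wild-type, and Lfng held 63.6% to 68.7% in Lgr6-null, against 63.8% to 66.6% in wild-type. Rfng was 21.2% to 27.4% in Lgr6-null, against 28.4% to 31.9% in wild-type, with its own log2 fold change at -0.03 (limma adjusted p = 0.833). As for Lfng, Lgr6-null M3 and M0 had the highest Mfng levels and the highest macrophage marker sums, whose part was not tested. Poglut2, which adds glucose to receptor repeats, was lower by a small amount (-0.30, SE 0.08, limma adjusted p = 0.0217).

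The largest change of the list was in Ccn3, a secreted matrix protein reported to bind Notch1. It was at 182, 129, 130 and 229 normalized counts in Lgr6-null, against 13.0, 18.9, 18.3 and 15.2 in wild-type. All 4 Lgr6-null libraries lay above all 4 wild-type libraries, with a log2 fold change of 3.25 (standard error 0.23, limma adjusted p = 1.82e-05). Mfap5, a microfibril protein reported to bind Jag1, was at 723 to 1502 in Lgr6-null, against 177 to 748 in wild-type, so the genotypes overlapped, with a log2 fold change of 1.58 (standard error 0.38, limma adjusted p = 0.0140).

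Of the 9 tested genes of the nuclear complex 1 was called higher and 2 lower, and of the 13 tested corepressors 2 were called higher and 3 lower, beside the background of 13.0% higher and 12.7% lower. The 3 called in the nuclear complex were the Mastermind coactivators: Maml2 was higher (0.54, SE 0.13), and Maml1 (-0.32, SE 0.10) and Maml3 (-0.40, SE 0.10) were lower. Among the corepressors, the Groucho family members Tle1 (0.53, SE 0.13) and Tle4 (0.48, SE 0.13) were higher, and Tle2 (-0.79, SE 0.13), Tle3 (-0.31, SE 0.08) and Spen (-0.46, SE 0.11), which holds RBPJ targets silent, were lower. The Groucho proteins also serve Wnt and Runx factors. Of the 16 tested genes for trafficking and ubiquitination 3 were called higher and 2 lower: the Deltex ligases Dtx4 (0.68, SE 0.14) and Dtx3l (0.52, SE 0.13) and the endocytic adaptor Epn1 (0.40, SE 0.11) were higher, and the kinase Aak1 (-0.32, SE 0.09) and the Notch inhibitor Numb (-0.31, SE 0.10) were lower. Limma adjusted p-values of 11 of these genes ran from 0.00163 to 0.0251. Maml1 (0.0473), Numb (0.0414) and Bhlhe41, higher at 0.37 (limma adjusted p = 0.0443), had larger p-values than the 15 chosen for naming. Bhlhe41 was placed among the other targets when the list was made, and no Notch control of it was measured here. Like Dlk2, Maml1, Numb and Bhlhe41 were added after their values were seen. Tle1, Tle2, Spen, Dtx3l, Maml1, Numb and Bhlhe41 share exon sequence with a gene on the opposite strand. Without a stated strand setting their levels are less certain, and the same holds for Notch1, Notch3, Dlk2, Dll1, Dll4, Furin and Adam17. Notch2 shares exon sequence with Gm42820 on its own strand, at 5.02 to 5.95 normalized counts in Lgr6-null, against 0 to 9.47 in wild-type. The part of Gm42820 in the Notch2 values was not tested.

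Ccn3, Mfng and Tle2 were called under all 20 alternatives. Scaling to broad stromal genes ended the calls of Dtx4 (0.37), Maml2 (0.23), Tle1 (0.23), Dtx3l (0.21), Epn1 (0.09) and Tle4 (0.17). Their limma adjusted p-values were then 0.0545 to 0.628. The stromal genes themselves averaged higher in Lgr6-null, so this scaling lowers every fold change and moved the median of all genes to -0.30. Scaling to the same total ended those of Tle3 (-0.22), Poglut2 (-0.21) and Aak1 (-0.23), with limma adjusted p-values of 0.104 to 0.13. Maml1 and Numb were not among the 3 pathway genes still called lower with that scaling. Bhlhe41 was not among the 3 called higher with the stromal scaling. Without the variance trend 9 pathway genes were called higher and 5 lower, and Maml1, Numb and Bhlhe41 were not among them. Of the 15 chosen for naming, single libraries decided 6 calls, with limma adjusted p-values of 0.0502 to 0.0736 where lost. Tle4 was lost without Lgr6-null M0 or M3 or wild-type M1, M2 or M3, and Poglut2 without Lgr6-null M0 or wild-type M1 or M3. Dtx3l was lost without Lgr6-null M0 or wild-type M3, and Epn1 without wild-type M1 or M3. Aak1 was lost without wild-type M0 or M2, and Maml3 without wild-type M2. Maml1, Numb and Bhlhe41 were not among the 5 pathway genes called lower and 7 called higher without Lgr6-null M0.

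**Figure D5:**
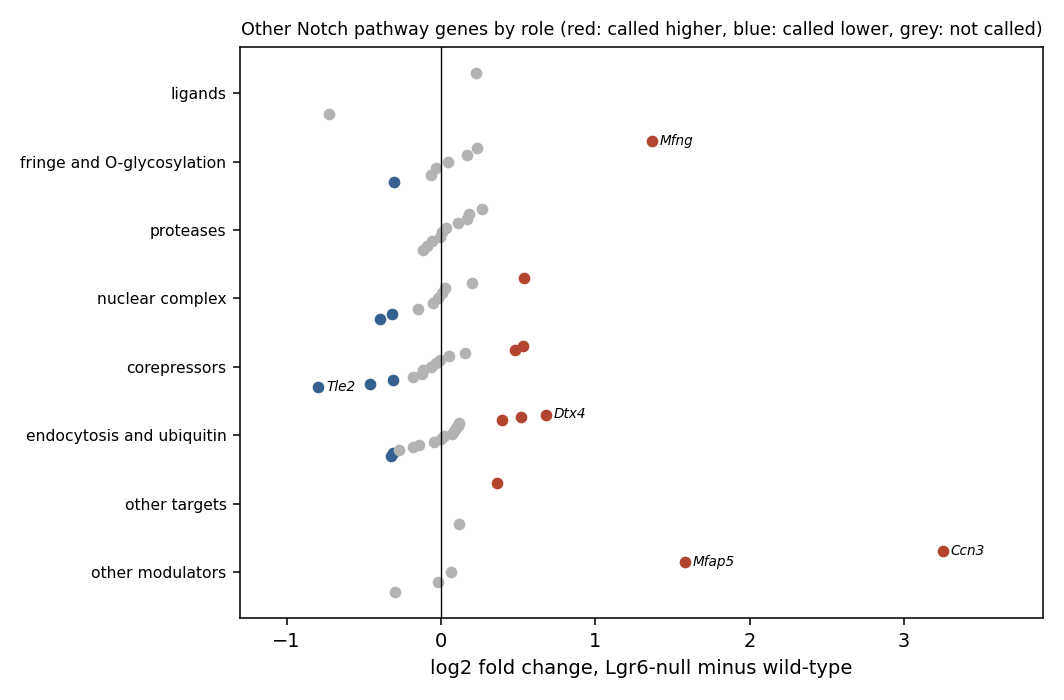
Log2 fold changes of the 64 tested genes of the wider Notch pathway, Lgr6-null minus wild-type, grouped by role, with 1 point per gene and the called genes beyond 0.6 in size named. The 10 genes in the protease row lie between -0.12 and 0.27, and Ccn3 at 3.25 lies farthest to the right.

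Among the 11563 genes with a mean of at least 50 normalized counts, those whose library-by-library pattern was nearest to that of Notch1 were Ralgps2, an exchange factor of Ral GTPases, Cmklr1, the receptor of the chemokine-like protein chemerin, and Rgl1, another Ral exchange factor. The root mean square difference from Notch1, over 8 libraries of log2 values centred on each gene's own mean, was 0.061, 0.068 and 0.081. Their log2 fold changes were 0.89, 0.82 and 0.91. The centring keeps the gap between the genotypes, so fold changes near that of Notch1 follow from how these genes were chosen. Cmklr1 averaged 1500 normalized counts in Lgr6-null, against 849 in wild-type.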

How the data were processed

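Polyadenylated RNA of 8 cultures was read as 100 bp paired ends from a stranded mRNA kit, per the labels' protocols. Per the submitters' processing notes, the tools were HTSeq 0.13.5, HISAT2 2.1.1 and DESeq2, with the build GRCm39. For the annotation, the strand setting and multi-mapping reads, no statement is given in the sources used here. A signal was deposited, namely read counts of 19460 genes divided by a size factor (normalized counts). 100% of its values were whole multiples of 1 step per library, within 0.01 read, so whole reads were recovered. The lowest gene total was 11 reads. Columns name the genotype and an M number that matches no sample title, so libraries were assigned to genotypes only. Symbols came from GENCODE M21 (19361 identifiers matched, 99 did not), and exon lengths from the same release, built on GRCm38.

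Genes with at least 10 normalized counts in at least 4 libraries (14294) were compared by limma 3.58.1 under R 4.3.3, its variances following a trend with the mean, using log2(normalized count + 1), on which fold changes of scarce genes depend on the pseudocount. Calls needed a Benjamini-Hochberg adjusted p under 0.05 over all genes tested. edgeR 4.0.16 on the recovered reads called 1997 genes higher and 1752 lower, and DESeq2 1.42.0 was also run. The other alternatives were pseudocounts, filters, scalings, variance models, a block and each library left out, 20 in all. Libraries of a genotype differed by far more than sampling noise (lowest chi-square per degree of freedom 8.81). Members and lists were chosen with earlier results of these data known. Named by rule were the members, up to 15 called pathway genes by smallest p, Jag2, Dll1, Dll4, Rbpj and Dlk1, and the 3 genes nearest to each called member.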

Additional observations from a re-analysis of the deposited data

How the results depend on the processing

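Of 20 alternatives, all called Notch1 higher, with log2 fold changes of 0.53 to 0.93 and adjusted p-values up to 0.00458. Notch3 and Hes1 were called under none of the 20 and Notch4 under none of 19, as it had too few reads for the filter of a mean of at least 50. Scaled to the same total, 2886 genes were higher, 2 members higher (Notch1 and Lfng, at 0.38), and 17 pathway genes higher and 3 lower. Scaled to broad stromal genes, 568 genes were higher and 4907 lower, 1 member lower (Hey1, at -2.04) and 3 pathway genes higher and 25 lower. That setting lowers every fold change and moved the median of all genes to -0.30. In it Notch2 (-0.29), Notch3 (-0.083), Lfng (-0.019), Jag2 (-0.074) and Rbpj (-0.28) changed sign, and none of these was called. Under quantile normalization Notch2 was at -0.051 and Rbpj at -0.0265. Without the variance trend 5 pathway genes were lower.

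Whether the M numbers pair the libraries was not settled. Deviations from the genotype means correlated at -0.010, -0.117 and 0.027 across genes for M0, M2 and M3. Libraries with different numbers correlated at -0.115 to 0.127. These values show no visible pairing, but they cannot tell whether equal numbers mark a shared animal or batch. In a fit with the M numbers as a replicate block, 937 genes were higher and 1021 lower. In it, 5 pathway genes were higher and 2 lower, and 1 member was lower (Hey1, at -2.35). Only M0, M2 and M3 occur in both genotypes, so Lgr6-null M4 and wild-type M1 do not enter the genotype effect of that fit. Spen, Mfap5, Tle3, Tle1, Maml3, Dtx3l, Epn1 and Poglut2 were no longer called (limma adjusted p-values 0.0513 to 0.143). Maml1, Numb and Bhlhe41 were no longer called either.

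With each library left out in turn, 1321 to 1839 genes were higher and 1375 to 1769 lower, 1 to 2 members higher and 0 to 1 lower, and 7 to 11 pathway genes higher and 4 to 9 lower. In those fits log2 fold changes were 0.274 to 0.516 for Jag1, -2.46 to -1.07 for Hey1, -0.048 (without Lgr6-null M2) to 0.097 for Notch2 and -0.16 (without Lgr6-null M0) to 0.12 for Rbpj, with -0.0073 without wild-type M0.

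Depth limits Notch4, Hey1, Heyl, Jag2, Dll1 and Dll4, which had 21 to 288 reads over all libraries. The causes of these shifts were not tested.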
